A study of Homo sapiens with 6 samples.

Results

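Short noncoding RNAs that work inside RNA-protein machines were examined: the 7SK RNA (RN7SK), the 7SL RNA (RN7SL1 and RN7SL2), the RNA of RNase MRP (RMRP), the RNA of RNase P (RPPH1) and the vault RNAs (VTRNA1-1, VTRNA1-2, VTRNA1-3 and VTRNA2-1). These 9 symbols were matched through GENCODE release 29 to 10 gene identifiers among the 58721 genes of the count table, because RMRP carried 2 identifiers. The libraries came from HEK293T, a human embryonic kidney cell line that is simple to grow and to edit. The 3 wild type libraries were compared with 3 libraries from HEK293T cells in which ALKBH5 and FTO, the demethylases that remove N6-methyladenosine from RNA, had both been knocked out with CRISPR/Cas9. The count columns used as wild type are named HEK293G6, a name that is in no label, and they were assigned because the other columns name the double knockout. Both groups were grown in the same serum medium and lysed in buffer with cycloheximide, and the RNA was described as cytoplasmic and was not selected for poly(A) tails. Per the labels the replicates of a group are biologically independent, and how many knockout clones they came from is not stated there.

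RNA polymerase III makes all of these RNAs. 7SK holds the elongation kinase P-TEFb in an inactive complex with HEXIM and LARP7, and 7SL is the scaffold of the signal recognition particle, which brings ribosomes that make secreted proteins to the endoplasmic reticulum. RNase P trims the leader of precursor tRNAs, and RNase MRP cuts precursor ribosomal RNA. Vault RNAs were first found in the vault, a large hollow particle built mainly of major vault protein, although most vault RNA in a cell lies outside it. VTRNA1-1 has been tied to autophagy through its binding of p62, and VTRNA2-1, also called nc886, binds the kinase PKR.

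The vault RNA sequences are shown because the 3 members with counts are close relatives of one another. They were taken from the GENCODE release 29 transcripts on GRCh38 (hg38) and are written 5′ to 3′ as DNA letters. VTRNA1-1 lies at chr5:140711275-140711373, VTRNA1-2 at chr5:140718925-140719013 and VTRNA1-3 at chr5:140726158-140726246, each a gene of 1 exon on the plus strand. VTRNA2-1 lies at chr5:136080470-136080597 on the minus strand. Capitals mark the longest run of letters that all 4 share.
VTRNA1-1: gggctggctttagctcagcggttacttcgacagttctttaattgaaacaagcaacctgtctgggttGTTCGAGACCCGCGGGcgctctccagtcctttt
VTRNA1-2: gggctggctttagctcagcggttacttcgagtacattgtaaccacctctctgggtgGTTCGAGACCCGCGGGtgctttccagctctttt
VTRNA1-3: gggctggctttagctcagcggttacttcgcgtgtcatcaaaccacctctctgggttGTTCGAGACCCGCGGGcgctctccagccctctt
VTRNA2-1: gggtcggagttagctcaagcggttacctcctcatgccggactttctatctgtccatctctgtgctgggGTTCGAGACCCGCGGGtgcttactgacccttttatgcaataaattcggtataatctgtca
The shared run was 16 bases long and began at position 67 of VTRNA1-1, 57 of VTRNA1-2, 57 of VTRNA1-3 and 69 of VTRNA2-1. It holds the letters GTTCGANNC, a form of the B box, the inner promoter element at which TFIIIC binds genes of tRNA type. Those letters occurred in 11 of 4844 annotated transcripts of 80 to 130 bases (0.227%), or 0.289% with either strand counted. The 4 vault RNAs are themselves among those 11. The 3 VTRNA1 RNAs also shared their first 29 bases without a difference. Over the whole RNA, VTRNA1-1 was 81.8% identical to VTRNA1-2 and 82.8% identical to VTRNA1-3, VTRNA1-2 and VTRNA1-3 were 87.8% identical, and VTRNA2-1 was between 55.7% and 58.5% identical to the others. The motif GGACT, the core of many N6-methyladenosine sites, was searched on the RNA strand. It was found once in VTRNA2-1, at position 38, and in none of the VTRNA1 RNAs, against 5.92% of transcripts of 80 to 130 bases (11.1% on either strand). Among the longer members it was found once in RMRP, at position 39, and not in RN7SK or RPPH1, against 25.1% of 6165 transcripts of 260 to 340 bases (44.9% on either strand).

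Nearly all 7SL reads were counted to RN7SL3, a copy that was not among the 9 symbols. RN7SL1 lies at chr14:49586580-49586878 on the plus strand, RN7SL2 at chr14:49862550-49862849 on the minus strand and RN7SL3 at chr14:49853616-49853914 on the minus strand. The 7SL genes are near-identical copies of one another.

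Gene totals per library ran from 5634648 to 7551825 counts. FTO, one target of the knockout, had 96.5 to 112 counts per 1000000 (CPM, on library sizes scaled by the TMM method) in the wild type and 53.6 to 61.0 in the double knockout. ALKBH5 had 235 to 256 CPM in the wild type and 186 to 187 CPM in the double knockout. Both targets were lower and neither was at 0. MALAT1, known as a nuclear RNA, had 1452 ± 27.1 CPM (SD, n = 3) in the wild type and 1406 ± 42.7 CPM in the double knockout.

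Of the 10 gene identifiers, 7 were listed at 0 in all 6 libraries, and these covered 6 of the 9 symbols: RN7SK, RN7SL1, RN7SL2, RMRP, RPPH1 and VTRNA2-1. A count of 0 allows up to 3 counts, or 0.407 to 0.545 CPM depending on the library, and that limit covers counting error only. These RNAs are used by every growing cell, apart from VTRNA2-1, so the zeros are described as listed values and not as absence. In 6 of the 7 identifiers at 0, exon bases were shared with another gene identifier on the same strand. RN7SK (chr6:52995621-52995948, plus strand, 328 bases) lay wholly inside RF00100. RN7SL1 lay wholly inside AL139099.4 and also inside RPS29 on the other strand. The RMRP identifiers (chr9:35657751-35658018, minus strand, 268 bases, and chr9:35657754-35658017, minus strand, 264 bases) covered each other, with 98.5% of the longer and 100% of the shorter shared. RPPH1 (chr14:20343075-20343407, minus strand, 333 bases) lay wholly inside AL355075.4, which had 2 counts in total over the 6 libraries. VTRNA2-1 shared 78.9% of its bases with RF00006 and kept 27 bases of its own. RF00100, AL139099.4 and RF00006 were at 0 as well.

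RN7SL2 was the exception. It shared no exon base with another identifier and was still at 0, lying between exons of the long noncoding gene AL627171.2, which had 96 counts in total. How featureCounts was set for reads that overlap several genes or that align to several places is not stated in the labels, and the part of either in these zeros was not tested. Small RNA genes of the whole annotation were counted the same way. Of 180 small RNA genes with every exon base shared on the same strand, 180 were at 0 (100%). Of 105 with part of their bases shared, 104 were at 0 (99.0%), and the 1 with counts, RNU11, had 5. Of 4830 with no shared base, 4355 were at 0 (90.2%). Among genes of all types, full sharing did not always go with 0. Of 859 such genes with every exon base shared, 620 were at 0 (72.2%), and AL035425.2 had 14966 counts. Of 4083 with part of their bases shared, 1823 were at 0, and of 53779 with no shared base, 26891 were at 0. The 3 VTRNA1 genes share no exon base, and all 3 had counts.

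**Figure D1:**
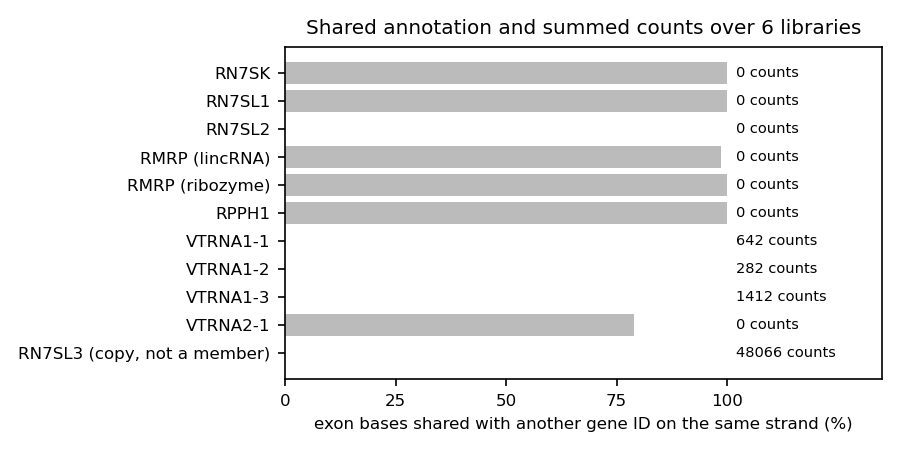
Share of exon bases (x axis, percent) that each member shares with another gene identifier on the same strand, with the counts summed over 6 libraries written beside each bar. The members with counts, VTRNA1-1, VTRNA1-2 and VTRNA1-3, have no shared base, and of the members at 0, RN7SL2 alone has none. RN7SL3, a 7SL copy outside the 9 symbols, is drawn last.

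The reads of the 7SL family were found at other copies. RN7SL3 held 48066 of the 54465 counts of all genes whose symbols begin with RN7SL (88.3%), over 680 such genes, of which 168 had any count. In CPM, RN7SL3 stood at 1120, 1283 and 1230 in the wild type and at 1210, 1373 and 1201 in the double knockout. The groups overlapped, and at 1211 ± 83.3 against 1261 ± 97.2 CPM (SD, n = 3) the log2 fold change was 0.06 (SE 0.08, edgeR quasi-likelihood test with Benjamini-Hochberg adjustment over all tested genes, adjusted p = 0.597). The difference in RN7SL3 was within the spread between replicates. With near-identical copies at RN7SL1 and RN7SL2, reads counted to RN7SL3 cannot all be assigned to it with certainty.

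The other 677 RN7SL copies, mostly annotated pseudogenes, summed to 136, 157 and 155 CPM in the wild type and 181, 200.1 and 163 CPM in the double knockout. Every double knockout library lay above every wild type library in this sum. For 60.6% of all tested genes, taken singly, the groups likewise did not overlap. The largest of these copies, RN7SL4P on chromosome 3, held 3518 of the 6399 counts of the sum. It had 82.1 ± 9.06 CPM in the wild type and 99.0 ± 15.7 CPM in the double knockout (log2 fold change 0.27, adjusted p = 0.232 by the same test). Of the 11 such copies tested, 3 rose and 0 fell: RN7SL151P (log2 fold change 0.66, adjusted p = 0.00244), RN7SL300P (0.61, adjusted p = 0.0253) and RN7SL396P (0.53, adjusted p = 0.0108). Over all genes 28.6% rose. RN7SL151P had 33, 29 and 30 counts in the wild type and 50, 43 and 43 in the double knockout, so these calls rest on few reads. Genes whose symbols begin with RN7SK had 431 counts over 294 genes, or 9.35 ± 0.719 CPM in the wild type and 13.0 ± 2.48 CPM in the double knockout, and the 2 that were tested did not pass. Genes whose symbols begin with RMRP or RPPH1 numbered 6, all at 0.

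VTRNA1-1, VTRNA1-2 and VTRNA1-3 were thus the members whose levels could be compared. All 3 passed the low-count filter. VTRNA1-1 and VTRNA1-3 were lower in the double knockout, VTRNA1-2 did not pass the test, and none was higher. Over all 14180 genes tested, 57.1% were called in either direction and 28.5% were called lower, so 2 of 3 members lower is read against a background in which a change was the usual outcome. In bulk libraries such as these, fewer cells with an RNA and less RNA per cell cannot be told apart.

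VTRNA1-1 had 164, 105 and 134 counts in wild type replicates 1, 2 and 3, and 67, 101 and 71 counts in double knockout replicates 1, 2 and 3. In CPM these were 22.5, 14.3 and 24.3 in the wild type and 11.2, 15.5 and 11.4 in the double knockout. Wild type replicate 2 lay below double knockout replicate 2, so the groups overlapped, while the other wild type libraries lay above all double knockout libraries. The mean was 20.4 ± 5.37 CPM in the wild type and 12.7 ± 2.48 CPM in the double knockout (SD, n = 3). VTRNA1-1 fell by 0.65 on the log2 scale (SE 0.16, edgeR adjusted p = 0.00159). It passed only narrowly with DESeq2 (-0.69, SE 0.29, adjusted p = 0.0434) and with limma voom (-0.62, SE 0.23, adjusted p = 0.0464). The call was lost without double knockout replicate 1 (log2 fold change -0.57, edgeR adjusted p = 0.0609) and without double knockout replicate 3 (-0.58, adjusted p = 0.0501).

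VTRNA1-2, the least abundant, had 93, 30 and 58 counts in the wild type and 15, 54 and 32 counts in the double knockout. The CPM were 12.8, 4.07 and 10.5 against 2.50, 8.31 and 5.12. The lowest wild type library lay below 2 of the double knockout libraries. At 9.13 ± 4.52 against 5.31 ± 2.91 CPM (SD, n = 3), the log2 fold change was -0.74 with a standard error of 0.64 (edgeR adjusted p = 0.394). The difference was as large as that of VTRNA1-1, but the spread between replicates was wider, and a fall like that of VTRNA1-1 was not detectable here. Without wild type replicate 2 the log2 fold change was -1.14 and passed the test (edgeR adjusted p = 0.00156).

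VTRNA1-3, the most abundant, had 281, 288 and 214 counts in the wild type and 205, 235 and 189 counts in the double knockout. The CPM were 38.6, 39.1 and 38.9 in the wild type and 34.1, 36.2 and 30.2 in the double knockout. Here the groups did not overlap, as was the case for 60.6% of all tested genes. The wild type replicates lay close together at 38.9 ± 0.236 CPM, against 33.5 ± 3.01 CPM in the double knockout (SD, n = 3). Counting error alone is wider than that wild type SD at 214 to 288 counts. The closeness is therefore not a measure of precision, and the lack of overlap rests partly on it. VTRNA1-3 fell by 0.21 on the log2 scale (SE 0.08, edgeR adjusted p = 0.0179). Without double knockout replicate 3, its lowest library, the log2 fold change was -0.14 and the call was lost (edgeR adjusted p = 0.170). The call was also lost with DESeq2 in place of edgeR (adjusted p = 0.0767) and with libraries scaled to their total counts alone (adjusted p = 0.0818).

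**Figure D2:**
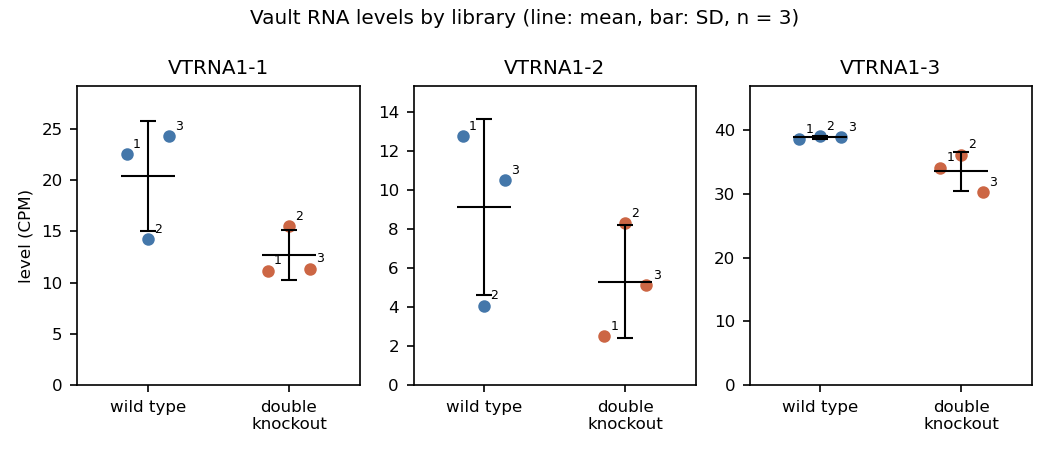
Levels of the 3 vault RNAs (y axis, CPM, each panel with its own scale from 0) in 3 wild type and 3 double knockout libraries, numbered by replicate, with the mean (line) and SD (bar). Double knockout libraries lie below wild type libraries without overlap for VTRNA1-3 alone, and wild type replicate 2 is low for VTRNA1-1 and VTRNA1-2.

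Per kilobase of RNA the order was the same in every library: VTRNA1-3 was highest, VTRNA1-1 next and VTRNA1-2 lowest. Wild type means were 437 ± 2.65, 206 ± 54.3 and 103 ± 50.8 CPM per kilobase in that order, and double knockout means were 377 ± 33.8, 128 ± 25.0 and 59.7 ± 32.7 (SD, n = 3). VTRNA1-3 stood clear of the others. The neighbours VTRNA1-1 and VTRNA1-2 nearly met in the wild type, where the lowest VTRNA1-1 library had 144.0 and the highest VTRNA1-2 library 143.7 CPM per kilobase.

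Whether the vault RNAs shifted relative to one another was tested on the log2 ratio of their counts within each library. VTRNA1-1 over VTRNA1-3 was -0.97 ± 0.42 in the wild type and -1.41 ± 0.20 in the double knockout (SD, n = 3, exact permutation test, two-sided p = 0.3). VTRNA1-1 over VTRNA1-2 was 1.28 ± 0.50 against 1.40 ± 0.67 (exact p = 0.7), and VTRNA1-2 over VTRNA1-3 was -2.25 ± 0.89 against -2.82 ± 0.85 (exact p = 0.5). All 3 ratios had an adjusted p of 0.7 by Benjamini-Hochberg, and 3 libraries against 3 cannot go below an exact p of 0.1. A difference in response among the 3 vault RNAs was therefore not shown, and the test could not have passed at 0.05.

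The vault RNAs were next set beside other small RNAs of the same libraries. Wild type replicate 2 and double knockout replicate 1 were the lowest of their groups for VTRNA1-1 and VTRNA1-2, and also for the Y RNAs RNY1 and RNY4, for the minor spliceosomal RNA RNU6ATAC and for the summed small nuclear RNAs. Summed small nuclear RNAs had 2463, 1949 and 2727 CPM in the wild type and 1868, 2596 and 2126 CPM in the double knockout. VTRNA1-3, RN7SL3 and the U6 spliceosomal RNA RNU6-1 did not follow that pattern. VTRNA1-1 met it narrowly, with 11.2 CPM in double knockout replicate 1 and 11.4 CPM in replicate 3. Summed small nucleolar RNAs met it in the wild type alone, with 85.8 CPM in double knockout replicate 1 and 83.8 CPM in replicate 3. Summed small nucleolar RNAs had 131 ± 14.2 CPM in the wild type and 92.5 ± 13.4 CPM in the double knockout. They did not overlap between groups, as was the case for 60.6% of all tested genes taken singly. The part of this library pattern in the lower vault RNA levels was not tested beyond the following comparisons.

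Per 1000 counts of small nuclear, small nucleolar and small Cajal body RNAs, VTRNA1-1 had 8.70, 6.90 and 8.46 in the wild type and 5.71, 5.75 and 5.14 in the double knockout. On this scale the groups did not overlap, at 8.02 ± 0.980 against 5.53 ± 0.341 (SD, n = 3, exact permutation test, two-sided p = 0.1, the smallest possible). VTRNA1-2 had 3.52 ± 1.49 against 2.22 ± 0.901 (exact p = 0.3), and VTRNA1-3 had 15.8 ± 2.80 against 14.8 ± 2.28 (exact p = 0.6). With all genes refitted on libraries scaled to those small RNA counts, the log2 fold change was -0.54 for VTRNA1-1 (edgeR adjusted p = 0.152), -0.64 for VTRNA1-2 (adjusted p = 0.138) and -0.09 for VTRNA1-3 (adjusted p = 0.872), and none passed. That scaling cut the genes called from 8093 to 1836, so the loss of a call was common under it. It moved the median of all tested genes from 0.01 to 0.13. Of the genes called under it 78.2% were higher, against 50.1% with TMM and 33.5% with scaling to the spike-in RNAs. With the median of all tested genes subtracted, VTRNA1-1 was at -0.67 under it and -0.66 with TMM. VTRNA1-2 was at -0.77 and -0.74, and VTRNA1-3 at -0.23 and -0.22. A change of scaling moves all genes by nearly the same amount. The closeness of these values was therefore fixed in advance and gives no support to the calls. Without both wild type replicate 2 and double knockout replicate 1 the log2 fold change was -0.79 for VTRNA1-1, -0.81 for VTRNA1-2 and -0.22 for VTRNA1-3. These libraries were picked partly because the vault RNAs were low in them, so the values are a description with no test. The small RNA scaling and the removal of both libraries were chosen after the data were seen.

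**Figure D3:**
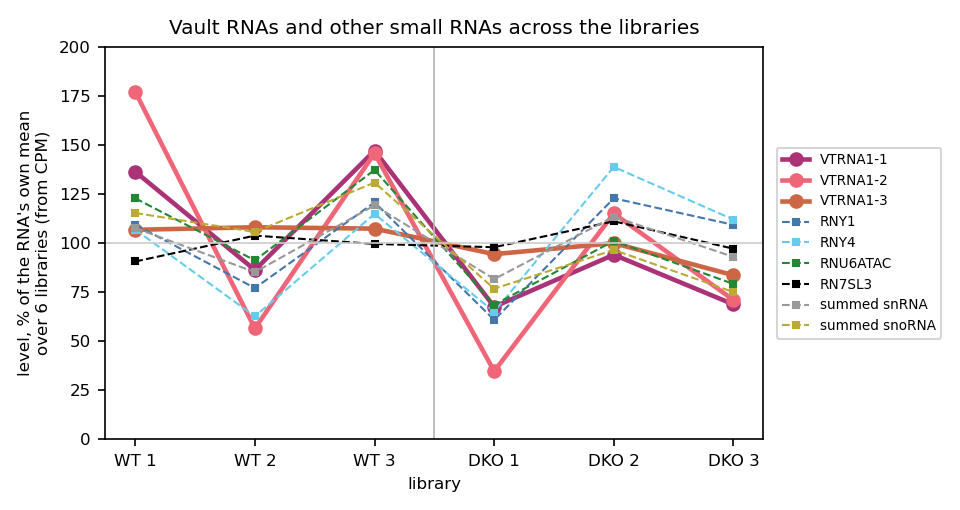
Level of each RNA in each library as a percentage of its own mean over 6 libraries (y axis), for the vault RNAs (thick lines) and other small RNAs (dashed), with wild type (WT) on the left and double knockout (DKO) on the right. WT 2 and DKO 1 are low for most RNAs shown, while VTRNA1-3 and RN7SL3 stay nearer to 100.

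Over 15 settings of the test, the removal of both libraries not among them, the log2 fold change of VTRNA1-1 ran from -0.88 to -0.53 and passed in 12. VTRNA1-2 ran from -1.23 to -0.36 and passed in 1, and VTRNA1-3 ran from -0.33 to -0.09 and passed in 11. Every one of these values was below 0.

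**Figure D4:**
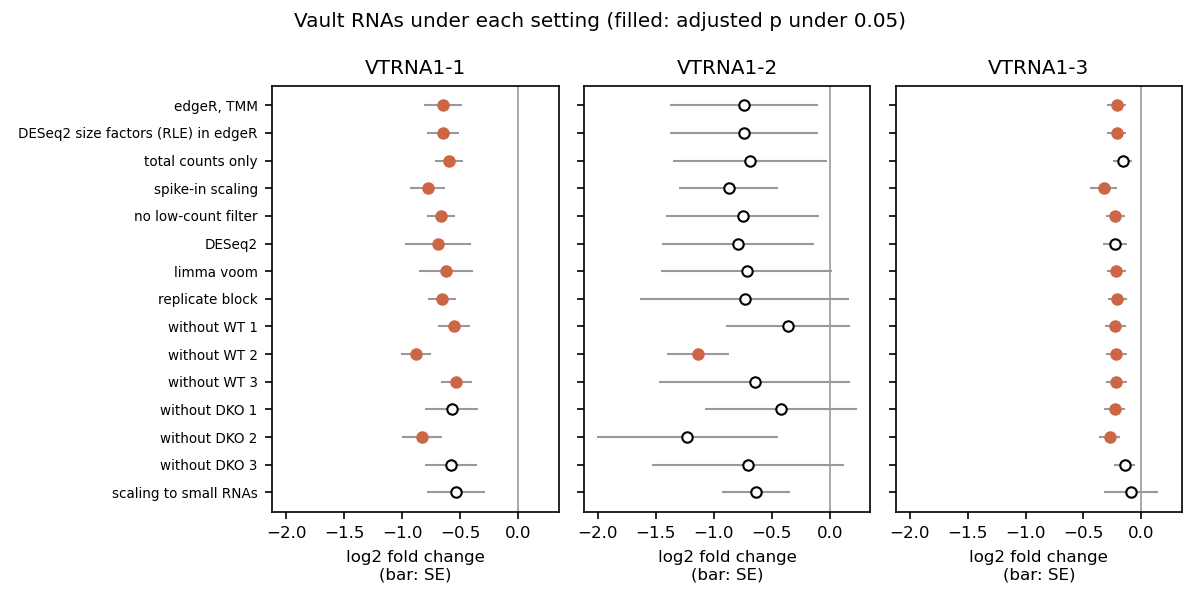
Log2 fold change of each vault RNA, double knockout over wild type (x axis, bars are SE), under each of 15 settings (y axis), filled where the adjusted p was under 0.05. The points of VTRNA1-1 lie between -0.88 and -0.53, and those of VTRNA1-3 lie nearer to 0.

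The genes around the vault RNA cluster were examined next. ZMAT2, the nearest tested gene before VTRNA1-1 at a distance of 4599 bases, rose from 113.5 to 131 CPM (log2 fold change 0.22). TAF7, the nearest tested gene after VTRNA1-3 at a distance of 533979 bases, had a log2 fold change of 0.00 (edgeR adjusted p = 0.974). Within 5 Mb of VTRNA1-1, 21 of 65 tested genes rose and 12 fell, where 28.6% of all tested genes rose and 28.5% fell. These 65 include VTRNA1-2 and VTRNA1-3, and VTRNA1-3 is among the 12 that fell. The median log2 fold change in the window was 0.06, against 0.01 over all tested genes. The loci of the members at 0 can be described only through their neighbours. Beside RN7SK, GSTA4 had a log2 fold change of 0.06 (adjusted p = 0.395) and ICK fell by 0.49. At RN7SL1, RPS29 on the other strand fell by 0.27, while LRR1 was at 0.05 and did not pass. LINC00648, the nearest tested gene before RN7SL1 but 1791488 bases away, fell by 0.54. At RN7SL2, AL627171.2 (0.28), ARF6 (-0.03) and RN7SL3 did not pass. Beside RMRP, CCDC107 rose by 0.32 (adjusted p = 0.0410) and CD72 was at 0.03 without passing. Beside RPPH1, PARP2 rose by 0.24 and CCNB1IP1 was at 0.03 without passing. Near VTRNA2-1, SMAD5 fell by 0.18 and FBXL21 was at 0.06 without passing. These neighbours thus held called and uncalled genes at most of the loci.

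Genes whose log2 CPM followed a vault RNA most closely over the 6 libraries were sought for members with at least 50 counts per library on average. For VTRNA1-1 these were GOLGA2P10 (Pearson r = 0.996) and TFCP2 (r = 0.991), and for VTRNA1-3 they were ASXL3 (r = 0.996) and CCDC32 (r = 0.993). They are the highest of 14180 genes over 6 libraries that share their depth and scaling, and the values are descriptive.

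The protein partners of these RNAs were followed through lists of genes, with genes among the 3 smallest p-values of each list named. Of 21 genes of the 7SK particle and P-TEFb, 6 rose, 7 fell and 8 were not called, with a median log2 fold change of -0.05. Over all tested genes 28.6% rose and 28.5% fell with a median of 0.01, so these shares lie near the background, and the same shares apply to each list that follows. With spike-in scaling 3 were higher and 7 lower. LARP7, which binds the 3′ end of 7SK and keeps it stable, fell from 85.6 ± 1.84 to 62.4 ± 2.68 CPM (log2 fold change -0.46, SE 0.06, edgeR adjusted p = 1.01e-13). AFF1, a scaffold of the super elongation complex, fell by 0.79, and HNRNPA2B1, which binds 7SK after its release of P-TEFb, fell by 0.39. Named for their roles after their values were seen, the kinase CDK9 rose by 0.49, the 7SK capping enzyme MEPCE rose by 0.26, and HEXIM1, the inhibitor of CDK9 in the complex, had a log2 fold change of -0.07 (adjusted p = 0.334). The median log2 fold change of tested genes within 5 Mb was -0.49 at LARP7, -0.46 at AFF1, -0.33 at HNRNPA2B1, 0.37 at CDK9 and 0.26 at MEPCE.

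Of the 8 proteins of the signal recognition particle and its receptor, 1 rose, 4 fell and 3 were not called, with a median of -0.07. The receptor subunits went opposite ways: SRPRB, which anchors the receptor in the membrane, fell from 156 ± 2.33 to 99.1 ± 3.20 CPM (log2 fold change -0.66), and SRPRA, which docks the particle, rose from 81.6 ± 6.10 to 104 ± 5.26 CPM (0.34). SRP72, a core protein bound to 7SL, fell by 0.51. The median of tested genes within 5 Mb was -0.61 at SRPRB and -0.65 at SRP72, and 0.03 at SRPRA.

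Of the 10 tested proteins of RNase P and RNase MRP, 5 rose, 3 fell and 2 were not called, with a median of 0.13. The number higher was 3 with DESeq2, 3 without the low-count filter and 2 with spike-in scaling. It was also 3 without wild type replicate 1, wild type replicate 3, double knockout replicate 1 or double knockout replicate 2, each left out alone. RPP25, which binds the P3 domain of both RNAs, rose from 13.9 ± 0.268 to 30.8 ± 2.72 CPM (log2 fold change 1.14, SE 0.10, edgeR adjusted p = 3.85e-24). Its groups did not overlap, as was the case for 60.6% of all tested genes. Tested genes within 5 Mb of RPP25 had a median of 0.03. POP1, the largest protein of both enzymes, fell by 0.37 among neighbours with a median of -0.02, and RPP14 fell by 0.46 among neighbours with a median of -0.45.

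All 3 vault proteins were tested, and 2 rose. MVP, which forms the shell of the vault, rose from 1.53 ± 0.583 to 3.41 ± 1.03 CPM (SD, n = 3, log2 fold change 1.10, SE 0.32, edgeR adjusted p = 0.00146). MVP is a low gene here, with 32 counts in the wild type and 64 in the double knockout over 3 libraries each. The counts were 15, 12 and 5 against 23, 27 and 14, and these overlapped. In CPM the groups did not overlap, with 2.06 in the highest wild type library and 2.24 in the lowest double knockout library. Among all tested genes 60.6% did not overlap. PARP4, the vault poly(ADP-ribose) polymerase, rose from 59.8 ± 0.931 to 68.8 ± 0.706 CPM (log2 fold change 0.20, adjusted p = 0.00245), a call lost with spike-in scaling (0.09, adjusted p = 0.480). TEP1, which binds vault RNA and telomerase RNA, had a log2 fold change of -0.03 (adjusted p = 0.808). The vault RNA calls and the vault protein calls thus had opposite signs, and no test of that difference was made.

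Of the 18 subunits of RNA polymerase III, 5 rose, 6 fell and 7 were not called, with a median of 0.01. That split depended on the scaling, since spike-in scaling gave 1 higher and 6 lower. Of 19 genes for its transcription factors 6 rose, 7 fell and 6 were not called, with a median of -0.05, and spike-in scaling gave 3 higher and 7 lower. POLR3G, the subunit of the polymerase form of dividing and stem cells, fell by 0.46 and POLR3C rose by 0.38. In TFIIIC, which binds the B box of the vault RNA genes, GTF3C5 rose from 116 to 171 CPM (log2 fold change 0.56) and GTF3C6 fell from 150 to 109 CPM (-0.46). POU2F1, which binds promoters of the 7SK and U6 kind, fell by 0.40. Tested genes within 5 Mb had a median of 0.44 at GTF3C5, -0.23 at GTF3C6, -0.03 at POU2F1, -0.12 at POLR3G and -0.10 at POLR3C.

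Of 17 proteins that bind, trim or degrade such RNAs, 5 rose, 8 fell and 4 were not called, with a median of -0.07, against 28.6% higher and 28.5% lower over all genes. With spike-in scaling 1 was higher and 8 were lower. DIS3, the catalytic subunit of the nuclear exosome, rose from 186 ± 4.65 to 378 ± 5.66 CPM (log2 fold change 1.03), among neighbours with a median of 0.11. SSB, the La protein that binds the 3′ ends of polymerase III transcripts, rose by 0.28, a call lost with spike-in scaling (0.17, adjusted p = 0.0751). XRN1, the 5′ to 3′ exonuclease, fell by 0.52 among neighbours with a median of -0.57. NSUN2, the methyltransferase known to act on vault RNAs and named after its value was seen, had a log2 fold change of -0.04 (edgeR adjusted p = 0.384).

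**Figure D5:**
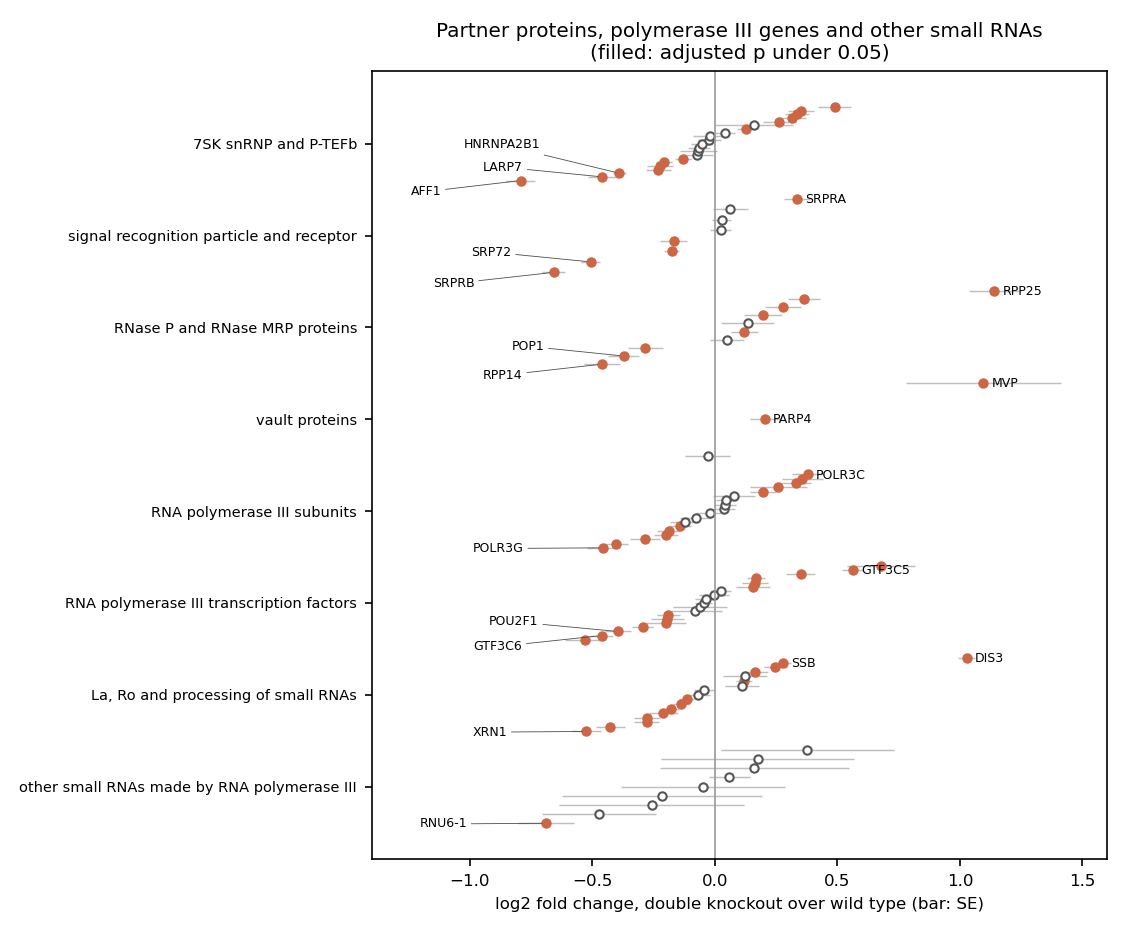
Log2 fold change, double knockout over wild type (x axis, bars are SE), of the tested genes of each list (rows), filled where the adjusted p was under 0.05, with called genes among the 3 smallest p-values named. Most lists have filled points on both sides of 0, and RPP25, MVP and DIS3 lie above 1.

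Among 9 other small RNAs of polymerase III with enough counts, 1 fell, 0 rose and 8 were not called, with a median of -0.05. RNU6-1, a U6 spliceosomal RNA gene, had 20.6, 21.3 and 25.6 CPM in the wild type and 12.7, 16.5 and 12.2 CPM in the double knockout. RNU6-1 fell by 0.69 on the log2 scale (SE 0.11, edgeR adjusted p = 1.69e-08), a size close to that of VTRNA1-1. Its groups did not overlap, as was the case for 60.6% of all tested genes. U6 has many near-identical copies, so the count of any one of them is uncertain. The Y RNAs, which bind the Ro protein, had log2 fold changes of -0.05 for RNY1, 0.16 for RNY3 and 0.17 for RNY4 (adjusted p between 0.746 and 0.918). RNU6ATAC had 121 ± 24.4 against 85.8 ± 17.2 CPM (log2 fold change -0.47, adjusted p = 0.159), and BCYRN1, RNU6-7 and RNU6-8 had -0.26, 0.38 and -0.22 without passing. The value of VTRNA1-1 thus lay near that of RNU6-1 and below those of the Y RNAs and RN7SL3, and these differences were not tested.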

How the data were processed

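RNA was sequenced in 6 libraries, 3 from wild type and 3 from double knockout HEK293T cells, after depletion of ribosomal RNA with a directional kit. The values deposited by the authors were unnormalized read counts for each gene, made with cutadapt 2.10, STAR 2.7.6a, featureCounts and the hg38 genome, per the submitters' processing notes. The strand, multi-mapping and overlap settings are not given there. The double knockout columns carry the genotype and replicate number. The other columns are named HEK293G6 with a replicate number, a name that is in no label, and were taken as wild type because they were the only ones left, so the control group rests on this assignment. Symbols, positions, exon sharing and RNA sequences came from GENCODE release 29. Exon sharing was taken from its basic transcript set, so exons outside that set were not seen.

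Genes were filtered with filterByExpr (minimum count 10, minimum total count 15), scaled by TMM and tested with the edgeR 4.0.16 quasi-likelihood test (robust, two-sided, R 4.3.3), with Benjamini-Hochberg adjustment over 14180 genes and a threshold of 0.05. The steps were tested on simulated counts. Alternatives used DESeq2 1.42.0, limma 3.58.1, other scalings, no low-count filter, a replicate block and each library left out. P-values set the difference between groups against the spread between these libraries. Whether that spread includes one between knockout clones is not known, because the number of clones is not stated. Single values were compared by exact permutation. Totals of 5634648 to 7551825 counts limit the precision of low genes, and PCR reads without molecular identifiers make counting limits minimal. Text names all members, the 3 genes with the smallest p of each list, the detected other polymerase III RNAs, overlapping and nearest tested genes, the 2 genes most like each member, and exceptions said to be chosen after their values were seen. An item that this rule names, and some sequences, are not reported here. The copies of 7SL and 7SK are described without a test of their sums. The members and gene lists were chosen with earlier results of these data known.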

Additional observations from a re-analysis of the deposited data

Results flagged for a closer look

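An RNA outside the comparisons had counts in every library. The count table holds an entry for a Renilla luciferase spike-in RNA (Rluc), which the labels do not name among the added RNAs, and it had 271 counts in its lowest library and 378 counts in its highest. It was not used for scaling.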

How the results depend on the processing

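Over 15 settings the vault RNAs kept their direction. Leaving out 1 library at a time gave log2 fold changes of -0.88 to -0.53 for VTRNA1-1, -1.23 to -0.36 for VTRNA1-2 and -0.28 to -0.14 for VTRNA1-3. VTRNA1-3 was not called with total counts only (-0.16) or with DESeq2 (-0.23). Scaling to small RNA counts, added after seeing the data, gave -0.54 for VTRNA1-1 and -0.091 for VTRNA1-3, neither called. That scaling cut the genes called over the whole data from 8093 to 1836. Leaving out both wild type replicate 2 and double knockout replicate 1, added likewise and picked partly on vault RNA levels, gave -0.81 for VTRNA1-2. This value is a description and not a test. The cause was not tested.

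Spike-in scaling used the GFP spike-in, with 285 to 384 counts per library, and the firefly luciferase spike-in, with 31 to 64. These few counts limit its precision. Spike-in scaling moved the median of all tested genes to -0.10 and cut the genes called higher from 4055 to 2133. With it, higher calls numbered 3 for the 7SK and P-TEFb list, 2 for RNase P and RNase MRP proteins, 1 for vault proteins, 1 for polymerase III subunits, 3 for its transcription factors and 1 for the La, Ro and processing list, and 2 other small RNAs were lower. RNase P and RNase MRP proteins had 3 higher calls without the low-count filter, 3 with DESeq2, and 3 to 5 with 1 library left out. Other small RNAs had 1 higher call without the filter. Summed 7SL over all annotated copies had 1360 CPM in the wild type and 1442 CPM in the double knockout, and summed 7SK had 9.35 and 13.0 CPM, where the named genes alone had 0. TEP1 turned to 0.023 with total counts only and ran from -0.084 to 0.027 with 1 library left out, turning without double knockout replicate 2. RNU6-7 ran from -0.0069, without that same replicate, to 0.58, and none of these was called. RNU6ATAC passed with spike-in scaling (-0.61). For single genes, 306 other values kept their direction and their side of the threshold.

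Replicate numbers did not pair the libraries: same-numbered libraries deviated from their group means with correlations of 0.0106, 0.0166 and 0.0085, and 0 of 6 libraries correlated best with their own number. With the replicate block, 4054 genes were higher and 4055 lower, VTRNA1-1 was at -0.66, VTRNA1-2 at -0.74 and VTRNA1-3 at -0.21 with the same calls, and 1 other small RNA was called higher. VTRNA1-2 had 15 counts in its lowest library, and low counts limit its precision.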
